A study of Ovis aries with 9 samples.

Results

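Rumen epithelial (RE) cells treated with GA-017 (GA) were compared directly with RE cells treated with verteporfin (VP). The comparison took every gene that reached 1 CPM (its counts relative to the sum over all genes of that library) in all 3 libraries of GA or in all 3 of VP, which left 11211 of the 25962 genes in the table. The cells were wild-type primary cultures of sheep rumen epithelium, which the study had isolated from newborn Hu lambs. GA wells received 10 μM GA-017 and VP wells 5 μM verteporfin, both for 24 h, and both compounds had been diluted in DMSO. The Con wells are described as having had no treatment, and 3 libraries of each group were deposited, so 6 of the 9 libraries entered the direct test and the Con libraries served as a reference for which treatment had moved a gene. The libraries are wells of a culture, no animal or donor is named for any of them, and p-values measure the spread between wells. The doses of the compounds differ, so compound and dose cannot be told apart, and the vehicle is shared by GA and VP but is not stated for Con.

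YAP1 and TAZ are co-activators that enter the nucleus and switch on genes together with TEAD transcription factors. The kinases of the Hippo pathway phosphorylate them and hold them in the cytoplasm, and in stratified squamous epithelia, such as that of the rumen, their activity is known for maintaining dividing basal cells. GA-017 is used as an activator of YAP1/TAZ, and verteporfin, a porphyrin also used as a photosensitizer, is used to block their work with TEAD, so the direct comparison asks how far apart the transcriptomes lie under agents of opposite intended action. The table lists genes by Ensembl identifier only, and 0 of these identifiers could be paired with a symbol, so the genes are described by their groups and by 4 identifiers. The labelled cell type was not checked against marker genes, and the positions of the genes are not given here.

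The 6 libraries held between 14861503 and 15814380 counts, and 99.9% of these fell on the genes tested. A count of 3 corresponded to between 0.190 and 0.202 CPM in these libraries, which limits what can be read at the lowest levels. Across the genes tested, the median coefficient of variation was 10.1% among the GA wells and 9.34% among the VP wells. Well 1 of GA and well 3 of VP stood somewhat apart from the other wells of their groups. The count profiles of wells 2 and 3 of GA had a chi-square of 2.93 per degree of freedom, against 14.3 and 14.8 for the pairs with well 1. In VP the pair of wells 1 and 2 gave 2.86, and the pairs with well 3 gave 8.61 and 7.88. All pairs thus differed by more than sampling noise (a value of 1), and each library was kept as a sample.

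GA and VP differed in the expression of 1732 genes, or 15.4% of those tested, at FDR < 0.05 and |log2 fold change| > 1 (quasi-likelihood test of edgeR, p-values adjusted after Benjamini-Hochberg over all genes tested). Of these, 1195 genes (10.7% of those tested) were higher in GA and 537 (4.79%) were lower in GA, so 69.0% of the called genes were on the GA side. Without the fold threshold the sides were closer, with 3221 genes (28.7%) higher and 2790 (24.9%) lower in GA at FDR < 0.05. A difference of less than 2-fold was thus found for 4279 genes. The median log2 fold change was 0.01 over all genes tested, with quartiles at -0.31 and 0.46, on a scale that TMM normalization centres. With wells GA 1 and VP 3 both left out, 1242 genes were higher and 583 lower in GA.

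**Figure D1:**
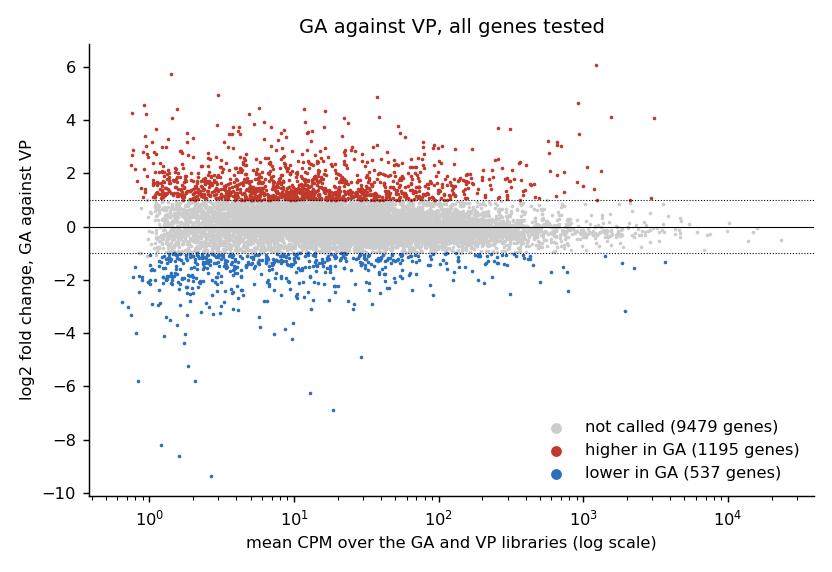
Each point is 1 of the 11211 genes tested, with its mean CPM over the 6 GA and VP libraries (log scale) against its log2 fold change of GA over VP. Dotted lines mark 2-fold, and the 1195 genes called higher in GA and the 537 called lower in GA spread over the whole range of levels.

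The called differences were large compared with the spread of the wells, which the call at these thresholds in part requires. Genes higher in GA had a median log2 fold change of 1.46 (quartiles 1.20 and 1.91) and those lower in GA one of -1.43 (quartiles -1.99 and -1.19), and the median SE was 0.20. More than 4-fold differences were found for 263 genes on the higher and 131 on the lower side. More than 8-fold differences were found for 66 and 34 genes, and more than 16-fold differences for 18 and 15. All 3 GA libraries lay above or below all 3 VP libraries in 6777 genes, or 60.4% of those tested. Among the called genes this held for 1191 of the 1195 higher and 533 of the 537 lower ones, so 8 called genes had overlapping wells.

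At FDR < 0.05 and |log2 fold change| > 1, genes with few counts were called more often than genes with many. Without the fold threshold this trend reversed, as given below. The level is that of counts, which gene length also sets. The filter let in 396 genes through GA only and 295 through VP only, which favoured their calls. How many of these lay in each level group was not computed, so their part in the trend is not known. The genes were split into 4 level groups of equal size by mean CPM over the GA and VP libraries. In level group 1, from 0.644 to 7.79 CPM, 489 genes were higher and 278 lower in GA, which was 27.4% of that group. In level group 2, up to 23.2 CPM, 339 were higher and 112 lower in GA (16.1%). In level group 3, 183 and 74 genes were called, and in level group 4, from 62.7 CPM, 184 and 73, which was 9.17% of each. Genes higher in GA outnumbered those lower in GA in all 4 level groups, making up from 63.8% to 75.2% of the called genes. Small differences leaned the other way among abundant genes. In level group 4, 1122 genes were lower and 733 higher in GA at FDR < 0.05 alone, against 435 and 770 in level group 1. Without the fold threshold, abundant genes thus passed more often than genes with few counts. The median log2 fold change went from 0.17 in level group 1 to -0.11 in level group 4. The values by level group were computed with TMM normalization only, so whether this lean depends on the scaling was not tested. Of the 100 genes with the most counts, 56 were lower and 14 were higher in GA at FDR < 0.05 alone, and 5 and 4 of them passed the fold threshold as well.

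**Figure D2:**
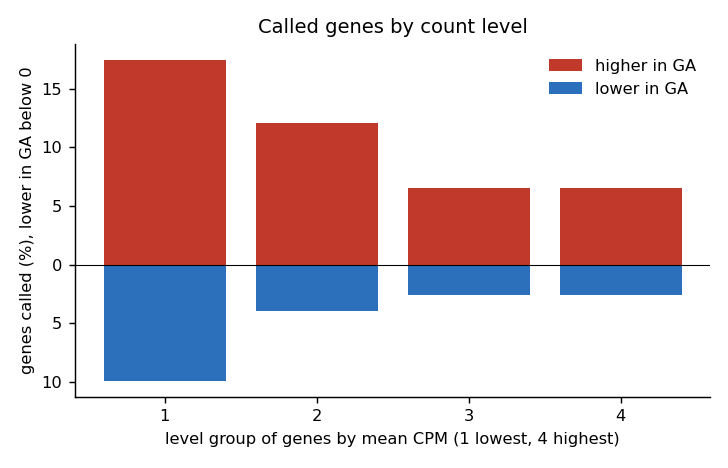
Bars give the percentage of genes in each of the 4 level groups by mean CPM that were called higher in GA (above 0) or lower in GA (below 0). The bars shrink from 17.5% and 9.92% in level group 1 to 6.56% and 2.60% in level group 4, and the higher side is the larger in each.

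The Con libraries show that the genes higher in GA than in VP were mainly genes with a low level in VP, not genes with a raised level in GA. Their median log2 CPM was 3.67, 3.69 and 3.88 in the Con wells, 4.14, 3.94 and 3.91 in the GA wells, and 2.38, 2.33 and 2.67 in the VP wells. The GA wells lay above the Con wells by far less than the VP wells lay below them. The median log2 fold change of these 1195 genes was 0.20 in GA against Con (quartiles -0.10 and 0.62) and -1.27 in VP against Con (quartiles -1.72 and -0.86). At the same thresholds, 773 of them (64.7%) were lower in VP than in Con, where 9.97% of all genes tested were. Higher levels in GA than in Con were called for 168 of them (14.1%), where 1.96% of all genes tested were. None of the 1195 was called higher in VP than in Con, where 0.321% of all genes tested were. Lower levels in GA than in Con were called for 14 (1.17%), where 5.21% of all genes tested were. Each of these comparisons shares its GA or VP libraries with the direct one. An excess or a shortfall beside all genes tested thus follows in part from how the genes were chosen, and no test of the overlap was made.

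The genes lower in GA than in VP had the reverse layout, with a low level in GA and a level in VP near that of Con. Their median log2 CPM was 3.35, 3.37 and 3.26 in the Con wells, 1.70, 1.76 and 1.82 in the GA wells, and 3.42, 3.46 and 3.43 in the VP wells. The median log2 fold change of these 537 genes was -1.36 in GA against Con (quartiles -2.03 and -0.91) and 0.20 in VP against Con (quartiles -0.14 and 0.46). Of these genes, 370 (68.9%) were lower in GA than in Con, where 5.21% of all genes tested were. None was called higher in GA than in Con, where 1.96% of all genes tested were. Higher levels in VP than in Con were called for 12 of them (2.23%), where 0.321% of all genes tested were. Lower levels in VP than in Con were called for 9 (1.68%), where 9.97% of all genes tested were. The choice of genes enters these shares as well. The number 12 rested on the fold threshold, on single wells and on the scaling. It was 23 without well 3 of VP, 19 without wells GA 1 and VP 3, and 52 after cyclic loess normalization. The layout given is that of genes more than 2-fold apart. At FDR < 0.05 alone, 1517 of 2790 genes lower in GA were higher in VP than in Con, and 1311 were lower in GA than in Con. Their medians against Con were then -0.28 in GA and 0.28 in VP. Shares over all genes tested were not computed at that threshold. Bulk RNA cannot tell less RNA per cell from fewer cells of one kind, and CPM shows relative levels only.

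**Figure D3:**
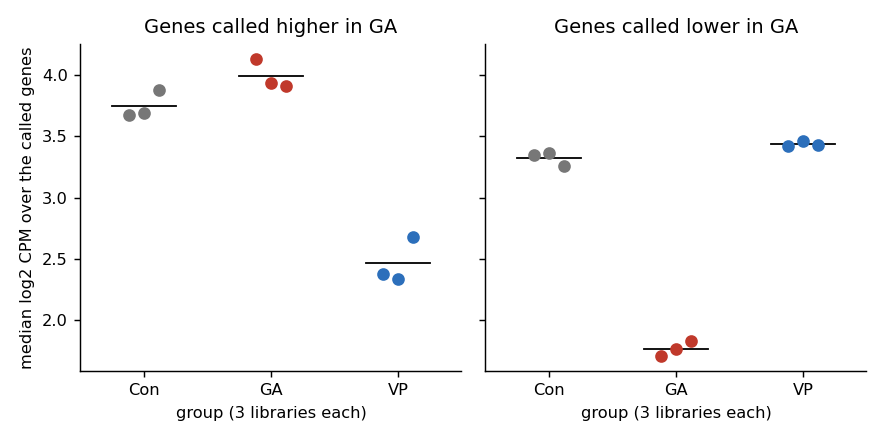
Each point is 1 library, placed at the median log2 CPM (prior count of 2) over the 1195 genes called higher in GA (left) or the 537 called lower in GA (right), and lines are means of the 3 libraries of a group. On the left the VP libraries lie lowest, at 2.33 to 2.67, and on the right the GA libraries do, at 1.70 to 1.82, while Con lies near the other treatment in both.

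**Figure D4:**
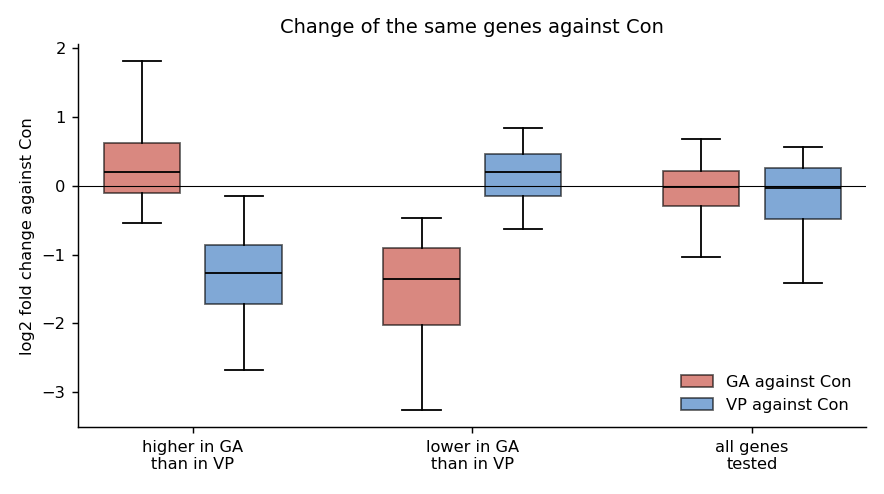
Boxes show the log2 fold change against Con (median, quartiles, and whiskers at the 5th and 95th percentiles) in GA and in VP, for the genes called higher in GA than in VP, those called lower, and all genes tested. The box far from 0 is that of VP (median -1.27) in the first set and that of GA (median -1.36) in the second.

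The Con wells could also be placed by rank among the called genes whose GA and VP wells did not overlap. For the 1191 such genes higher in GA, the Con wells overlapped those of GA and lay clear above VP in 548, and lay between both groups in 347. They lay above all GA wells in 128 of these genes, overlapped VP and lay below GA in 122, overlapped both in 35, and lay below all VP wells in 11. For the 533 such genes lower in GA, the Con wells overlapped those of VP and lay clear above GA in 250, and lay between both groups in 169. They lay above all VP wells in 67 of them, overlapped GA and lay below VP in 30, overlapped both in 16, and lay below all GA wells in 1. In both sets a Con level at that of the treatment with more RNA was the most frequent position. The same GA and VP wells had chosen these genes. The positions were not counted over all genes tested, so whether they are particular to the called genes is not known.

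The shares called against Con varied with the size of the difference. This follows in part by construction, since a gene far apart between GA and VP must lie away from Con in at least 1 of them. Over all genes tested, 9.97% were lower in VP, 1.96% higher in GA, 5.21% lower in GA and 0.321% higher in VP than in Con. Among the genes higher in GA by 2 to 4-fold, 60.8% of the 932 were lower in VP than in Con and 9.12% were higher in GA than in Con. Among those higher by 4 to 8-fold, the shares of the 197 genes were 81.2% and 23.9%. Among the 66 genes higher by more than 8-fold, 69.7% were lower in VP and 54.5% were higher in GA than in Con, with medians of -2.29 for VP against Con and 1.35 for GA against Con on the log2 scale. Of the 34 genes lower in GA by more than 8-fold, 33 were lower in GA than in Con and 1 was higher in VP than in Con, with medians of -3.67 and 0.24.

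Differences within 2-fold were also set against Con. The 2253 genes lower in GA at FDR < 0.05 but by less than 2-fold had a median log2 fold change of -0.18 in GA against Con and 0.29 in VP against Con. Of them, 97 (4.31%) were called lower in GA than in Con, where 5.21% of all genes tested were. Higher levels in VP than in Con were called for 4 (0.178%), where 0.321% of all genes tested were. The 2026 genes higher in GA within 2-fold had medians of 0.13 in GA and -0.46 in VP against Con. Of these, 35 (1.73%) were called higher in GA than in Con and 221 (10.9%) lower in VP than in Con. Over all genes tested these shares were 1.96% and 9.97%. Calls against Con were thus near or below the shares over all genes tested on both sides. This follows in part from the choice of genes. They lay within 2-fold between GA and VP, while a call against Con needs more than 2-fold. Calls against Con at FDR < 0.05 alone were not counted for these genes by themselves, so smaller shifts from Con are not covered.

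The called genes took up a visible part of all counts. The 1195 genes higher in GA held 10.1% ± 0.364 of the counts in GA, 8.92% ± 0.0935 in Con and 2.81% ± 0.106 in VP (SD, n = 3). The 537 genes lower in GA held 1.64% ± 0.066 in GA, 3.97% ± 0.0409 in Con and 4.52% ± 0.00408 in VP (SD, n = 3). Few genes held most of these counts. In the higher set 36 of the 1195 genes held 50% of the set's counts in GA, and in the lower set 13 of the 537 genes held 50% of the set's counts in VP.

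The CPM minimum was passed in both groups by 10520 genes, in GA and not in VP by 396, and in VP and not in GA by 295. The order of the last 2 counts turned without 1 VP library, to 331 and 366 without well 1 of VP and to 315 and 378 without well 2. Of the 396 genes, 240 were called higher in GA, and of the 295 genes, 171 were called lower in GA. Over all genes tested, 10.7% and 4.79% were called so. These genes entered the test through 1 group only, so the filter itself favoured these directions. The Con libraries also passed the minimum for 268 of the 396 and for 226 of the 295. Most genes under it in 1 treatment only thus passed it in Con. The share of all genes tested that passed it in Con was not computed. Few genes were lost altogether. At most 3 counts in every GA library were found for 9 of the genes tested. The filter let such genes in only through VP and so fixed the direction of their calls in advance. All 9 were called lower in GA. These had group means from 19.3 to 80.7 counts in VP, and 8 of them had more than 3 counts in every Con library. At most 3 counts in every VP library were found for 6 genes, which the filter let in only through GA. All 6 were called higher in GA, with means from 22.3 to 46 counts in GA. Only 2 of these had more than 3 counts in every Con library, and Con means ran from 1 to 12.3 counts.

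The identifier ENSOARG00020008733 had the largest fold change of the genes higher in GA whose wells did not overlap. Its counts were 39325, 35655 and 36242 in the GA wells, 527, 485 and 579 in the VP wells, and 5013, 4743 and 4482 in the Con wells. The 3 groups lay far apart, with Con between the treatments. In TMM-normalized CPM the levels were 2402 ± 137 in GA, 35.4 ± 1.26 in VP and 308 ± 12.5 in Con (SD, n = 3), so GA was 67.9-fold above VP. The log2 fold change was 6.09 between GA and VP (SE 0.08, FDR = 7.23e-17 by edgeR), 2.95 in GA against Con (SE 0.06, FDR = 1.8e-12 by edgeR) and -3.14 in VP against Con (SE 0.07, FDR = 1.26e-15 by edgeR). It thus moved in opposite directions under the treatments. It was also first within level group 4, so ENSOARG00020019399, the next there, was named after its values were seen.

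ENSOARG00020019399 lay far lower in VP than in both other groups. Its counts were 30210, 25953 and 25468 in GA, 1047, 991 and 1101 in VP, and 23631, 22634 and 21080 in Con. All GA wells lay above all Con wells in CPM, by little beside the distance of both from VP. The level was 1763 ± 178 CPM in GA, 69.9 ± 0.676 CPM in VP and 1456 ± 59.9 CPM in Con (SD, n = 3). The log2 fold change was 4.67 between GA and VP (SE 0.09, FDR = 2.32e-15 by edgeR), 0.26 in GA against Con (SE 0.07, FDR = 0.00838 by edgeR, under the fold threshold) and -4.40 in VP against Con (SE 0.06, FDR = 4.5e-18 by edgeR).

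ENSOARG00020007556 had the largest fold change among the genes lower in GA in level group 4. Its counts were 6427, 5706 and 5873 in the GA wells, 49269, 47447 and 60865 in the VP wells, and 55113, 58708 and 61810 in the Con wells. The VP and Con wells overlapped in CPM, and the GA wells lay far below both. The level was 389 ± 25.8 CPM in GA, 3498 ± 296 CPM in VP and 3801 ± 279 CPM in Con (SD, n = 3). The log2 fold change was -3.16 between GA and VP (SE 0.08, FDR = 1.17e-13 by edgeR), -3.30 in GA against Con (SE 0.08, FDR = 1.8e-12 by edgeR) and -0.14 in VP against Con (SE 0.07, FDR = 0.0907 by edgeR).

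ENSOARG00020006419 had the largest fitted fold change of all genes lower in GA, at a low level. It had 0 counts in each GA well, 90, 60 and 92 counts in the VP wells, and 59, 71 and 54 counts in the Con wells. Against a floor of 3 counts in each GA library, it was at least 27.6-fold higher in VP than in GA (FDR = 1.12e-07 by edgeR for the fitted difference). In VP its level was 5.36 ± 1.01 CPM, and in Con it was 3.98 ± 0.528 CPM (SD, n = 3). VP differed from Con by 0.41 on the log2 scale (SE 0.23), which did not pass the test (FDR = 0.146 by edgeR).

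**Figure D5:**
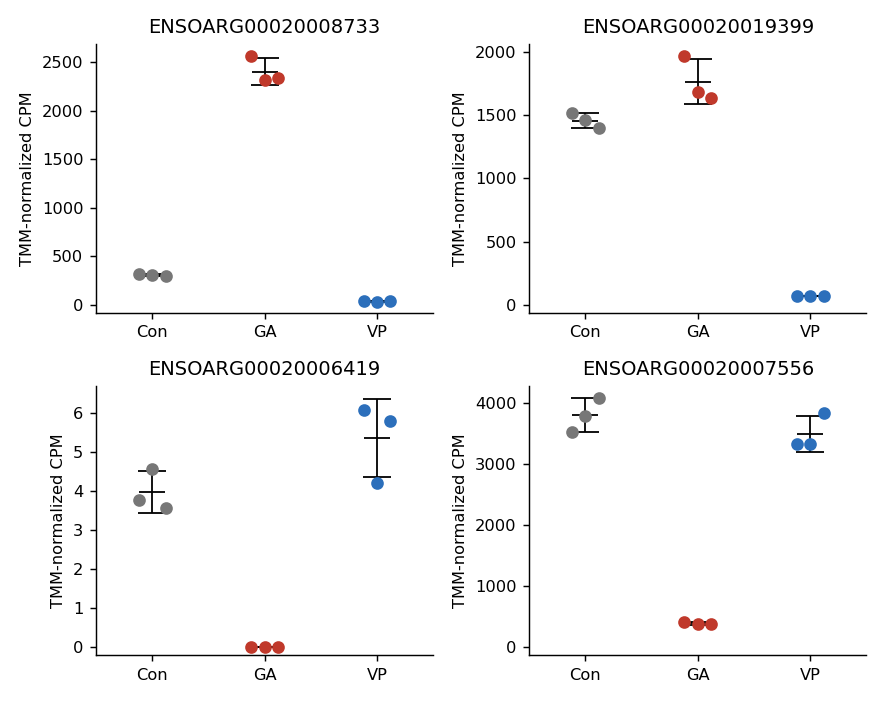
Points are the 3 libraries of each group in TMM-normalized CPM, on linear axes of their own, with means and SD as bars. ENSOARG00020008733 is highest in GA and lowest in VP, ENSOARG00020019399 is low in VP only, and ENSOARG00020006419 and ENSOARG00020007556 are low in GA only, with 0 counts in GA for ENSOARG00020006419.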

How the data were processed

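Total RNA of RE cells was sequenced in 3 libraries each of Con, GA and VP. The values deposited by the authors are raw read counts per gene and library, neither normalized nor pooled. Reads had passed CASAVA 1.8 and had been aligned by HISAT2 against Oar_rambouillet_v1.0. The counting tool, annotation and strand setting are not given in the sources used here. All columns were assigned by the group letter and replicate number in their names. TMM-normalized counts were tested with edgeR 4.0.16 (R 4.3.3, glmQLFit and glmQLFTest), each comparison with only its 6 libraries, and FDR values were adjusted over all 11211 genes tested. The SE of a log2 fold change is its size over the square root of F. The levels given are CPM on TMM sizes of all 9 libraries. DESeq2 1.42.0, limma 3.58.1 and other filters, scalings and thresholds were alternatives, and the scripts were tested on simulated data. Floors cover counting error only.

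The identifiers follow a rule that took, in each direction, the called gene with the largest fold change among genes whose GA and VP wells did not overlap, and the largest among the most abundant of 4 equal groups of genes by mean CPM. The comparison and lists were chosen with earlier results of these data known. The gene lists were not used, since no symbols were paired.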

Additional observations from a re-analysis of the deposited data

How the results depend on the processing

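Of 140 counts recomputed under alternatives that kept all libraries or left out both GA 1 and VP 3, 119 stayed within 1.5 times the reported count, as did 59 of the 60 recomputed without 1 library. All 84 recomputed fold changes of the 4 identifiers kept their direction at FDR < 0.05. Of the 84 recomputed medians against Con, 75 moved by less than the spread of the library medians, and all 84 kept their direction. The choice of threshold moved the counts most. Shares of all genes tested that were called against Con were not computed at FDR < 0.05 alone or with glmTreat. The counts against Con at those settings thus have no background beside them and are not read as an excess. At FDR < 0.05 alone, 3221 genes were higher and 2790 lower in GA, and of all of these 2752 were called in GA against Con and 4095 in VP against Con. Of the higher genes, 2262 were then lower in VP and 1050 higher in GA than in Con, and of the lower genes, 1311 were lower in GA and 1517 higher in VP than in Con. With glmTreat, which tests against 2-fold, 570 genes were higher and 250 lower, 224 were called in GA against Con and 309 in VP against Con, and these parts were 307, 66, 155 and 1. Genes lower in GA and higher in VP than in Con, 12 as reported, numbered 22 at a minimum of 0.5 CPM, 4 at 2 CPM, 7 at FDR < 0.01, 52 after cyclic loess, 19 without GA 1 and VP 3 (added after the data were seen), and from 11 to 23 without 1 library, the highest without well 3 of VP. For the genes lower in GA, the median in GA against Con was -0.28 at FDR < 0.05 alone, -1.13 after cyclic loess, -1.82 with glmTreat and -1.53 without a filter. Their median in VP against Con was 0.28 at FDR < 0.05 alone and 0.34 after loess, and ran from 0.16 to 0.29 without 1 library. For the genes higher in GA, the median in VP against Con was -0.67 at FDR < 0.05 alone and -1.56 with glmTreat. The threshold settings change the set of genes by construction, and for the other moves the cause was not tested.

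No pairing by replicate number was seen, as deviations of same-numbered GA and VP wells from their group means correlated at -0.18, 0.11 and -0.16. With 3 wells per group these deviations are tied to each other, so the correlations cannot exclude a pairing. The highest of all 9 correlations, 0.29, was that of GA 1 with VP 3. With a replicate block, 1196 genes were higher and 534 lower in GA, of which 1709 were shared with the reported genes. With DESeq2, 1147 and 551 genes were called, and after cyclic loess, 1006 and 642. Levels under 3 counts have no order.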
